A study of Mus musculus with 4 samples.

Results

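Divergent protein-coding pairs that overlap at their 5′ ends were described in total RNA-seq of mouse T-helper 2 cells. A pair was taken from the gene model coordinates that accompany the counts. In each pair, a protein-coding gene on the minus strand and another on the plus strand share at least 1 exon base. The minus gene begins and ends at lower coordinates than the plus gene, so the span overlap is bounded by the annotated 5′ ends of both genes. The rule does not require the shared exon bases themselves to lie near those ends, and in some pairs they lie toward the 3′ end of 1 gene. The rule uses gene coordinates and types, and no counts. Of 1388 protein-coding pairs that share exon bases on opposite strands, 454 were divergent, and 7 of these with a ribosomal protein gene were left out. The remaining 447 pairs held 889 genes of the 50600 counted, and 5 genes stood in more than 1 pair.

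A divergent pair can be transcribed from a bidirectional promoter, a stretch of open chromatin from which polymerases leave in both directions on opposite strands. The rule here uses annotated exons, and whether the genes of a pair share a promoter was not tested. In mammals such promoters are often rich in CpG and commonly serve genes with basic roles in every cell, such as DNA repair, mitochondrial function and RNA processing. Where the first exons of both genes reach past each other, their transcripts are complementary over the shared bases, and only a count that keeps the strand assigns a read there to 1 gene.

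All 4 libraries belong to 1 group: primary T-helper 2 cells of C57BL/6NJ mice, helper T lymphocytes of the type known for interleukin 4, interleukin 5 and interleukin 13. The file headers give 16 hours, a time the sample labels do not carry. Sex was not collected and age is unknown. The labels number the 4 libraries as biological replicates but give the same donor identifier to each, so their spread may be technical. Total counts per library ranged from 1688658 to 2222583. All 14 T cell markers examined had counts in all 4 libraries, whereas 4 of the 10 T-helper 2 markers (Il5, Il13, Il1rl1 and Maf) were at 0. Of 5 macrophage and dendritic markers, 2 (Csf1r and Cd74) had counts in all 4 libraries and 3 (Adgre1, Lyz2 and Itgax) were at 0. That list summed to 446 to 550 CPM (counts scaled to library totals), above the 156 to 209 CPM of the T-helper 2 list. The T cell list, of 14 genes, summed to 697 to 937 CPM. All 3 regulatory T cell markers (Foxp3, Il2ra and Ctla4) had counts in all 4 libraries and summed to 410 to 460 CPM. The B cell list summed to 4.78 to 9.38 CPM, and the CD8 and cytotoxic list to 1.78 to 6.45. The T-helper 1 and T-helper 17 lists reached at most 0.53 and 1.35 CPM. The part of other cell types in the results below was not tested. None of the markers is a gene of these pairs. Whether the counted strand is the strand of the transcripts was not tested. Whether the strand option used for counting matches the library kit is not given. Every level below is therefore that of the counted strand, and need not be the level of the named gene's own transcripts. In a bulk sample, fewer cells of a type and less RNA per cell cannot be told apart.

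The sequences at the shared ends are shown for pairs with the highest counts and for the shortest overlaps with at least 10 counts, wherever the RefSeq promoter window of the plus gene (250 bases before its start to 50 after, GRCm38.p6, plus strand, 5′ to 3′) reaches the shared bases. Capitals mark matches to 7 short motifs on either strand. They are the TATA box in the form TATAAA, the CCAAT box by those letters, the GC box as GGGCGG, the ETS core as CCGGAAG, the NRF1 core as GCATGCG, the YY1 core as ATGGCGG, and the housekeeping core, a motif of housekeeping promoters, as TCTCGCG. Neighbouring or overlapping matches join into a longer run of capitals.
Mettl23 (chr11:116843265-116843564): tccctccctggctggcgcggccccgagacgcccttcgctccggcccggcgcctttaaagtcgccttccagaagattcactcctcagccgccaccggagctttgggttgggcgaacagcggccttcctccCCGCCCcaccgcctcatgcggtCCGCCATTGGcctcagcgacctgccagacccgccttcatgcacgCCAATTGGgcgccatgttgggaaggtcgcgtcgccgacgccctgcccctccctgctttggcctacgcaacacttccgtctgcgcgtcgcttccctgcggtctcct
Smg6 (chr11:74925604-74925903): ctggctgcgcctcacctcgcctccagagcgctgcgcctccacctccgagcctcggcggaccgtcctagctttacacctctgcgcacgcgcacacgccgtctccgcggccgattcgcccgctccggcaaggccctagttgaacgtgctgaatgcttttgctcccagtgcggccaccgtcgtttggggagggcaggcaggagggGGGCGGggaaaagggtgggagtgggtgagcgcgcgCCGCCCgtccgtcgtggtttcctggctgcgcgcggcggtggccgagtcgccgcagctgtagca
Pus10 (chr11:23665742-23666041): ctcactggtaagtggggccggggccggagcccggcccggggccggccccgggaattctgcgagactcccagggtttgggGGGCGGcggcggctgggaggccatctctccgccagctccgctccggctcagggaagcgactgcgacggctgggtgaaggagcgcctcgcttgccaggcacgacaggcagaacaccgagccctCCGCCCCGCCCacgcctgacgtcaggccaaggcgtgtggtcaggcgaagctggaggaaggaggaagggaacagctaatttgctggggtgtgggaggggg
Cutc (chr19:43752773-43753072): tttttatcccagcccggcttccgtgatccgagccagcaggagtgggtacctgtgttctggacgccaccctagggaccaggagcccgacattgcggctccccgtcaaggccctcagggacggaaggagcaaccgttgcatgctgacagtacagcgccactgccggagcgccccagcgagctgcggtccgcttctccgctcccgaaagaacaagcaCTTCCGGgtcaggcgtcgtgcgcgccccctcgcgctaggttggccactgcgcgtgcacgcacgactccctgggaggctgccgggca

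The Mettl23 window holds all 172 bases shared with Jmjd6 (chr11:116843278-116843449) and has a GC content of 68.3%. It has 3 CCAAT matches, with first bases 94, 55 and 52 bases before the RefSeq start, a GC box match at 121 and a YY1 core match at 99 that overlaps a CCAAT match. The Smg6 window holds 81 of the 126 bases shared with Srr (chr11:74925823-74925948) and has GC box matches at 48 and 13 bases before the start. The Pus10 window contains both bases shared with Pex13 (chr11:23665747-23665748) and 3 GC box matches. The Cutc window contains the 5 bases shared with Cox15 (chr19:43752996-43753000) and 1 ETS core match, 36 bases before the start. None of these 4 windows has a TATAAA match. Across 32851 RefSeq promoter windows of the same length, the share with at least 1 match was 37.4% for CCAAT, 35.7% for the GC box, 13.6% for TATAAA, 8.86% for the ETS core, 4.06% for the YY1 core, 3.58% for the NRF1 core and 2.56% for the housekeeping core. Matches of such short words are descriptions of the letters and not binding sites. The windows of Prtn3, Mfsd11 and Pde6h, plus genes of other pairs with high counts, hold none of the shared bases. The RefSeq start used for each of these windows lies downstream of the shared bases, although the RefSeq spans of Mfsd11 and Srsf2 do overlap. A window was found for 707 of the 889 genes (79.5%), too few for a comparison of base composition over all pairs.

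The overlaps were short against the genes. The shared exon length had a median of 170 bases, with quartiles of 96.5 and 277.5 and a range of 2 to 2455 bases. It made up a median of 4.64% of the exon length of the plus gene and 4.46% of that of the minus gene. In 364 pairs the shared bases formed a single block, and 47 pairs shared 50 bases or fewer while 55 shared over 400. The full spans of the genes, introns included, overlapped by a median of 391 bases, and in 143 pairs (32.0%) the whole span overlap was shared exon. In 15 pairs the spans overlapped by over 10000 bases, the widest by 63982. RefSeq models of the same build also overlapped in 244 pairs and lay apart in 163, and 40 pairs had no match there. The median summed count was 128 in pairs that overlap in RefSeq and 113 in pairs that lie apart there.

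The genes of these pairs were detected more often, and at higher counts, than protein-coding genes at close divergent ends that do not overlap, also when only pairs with no other opposite exon were taken. Of the 889 genes, 708 (79.6%) had counts in all 4 libraries and 81 had none in any library. Among 827 genes of 415 divergent pairs that lie up to 1000 bases apart with no opposite exon, 63.4% had counts in all 4 libraries. The like comparison takes the 516 genes of the overlapping pairs with no other opposite exon, of which 74.4% had counts in all 4. Among 16963 protein-coding genes with no opposite exon the share was 31.6%, and among 1417 genes of convergent pairs, which overlap at their 3′ ends, it was 83.6%. A high share was therefore not particular to divergent overlaps, and the sets compared also differ in having an opposite exon at all.

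The median count of a gene in a divergent overlapping pair was 24, 21, 26 and 28 in replicates 1 to 4 (24.8 ± 2.99, SD, n = 4). The median in the close pairs without overlap was 4.25 ± 0.50, in every library below that of the overlapping pairs. For the 516 genes with no other opposite exon the median was 15.5, 15.5, 17 and 19 (16.8 ± 1.66), also above the close pairs in every library. Convergent genes were higher in every library, at 42.8 ± 5.38. With 4 libraries an exact two-sided sign-flip test cannot go below a p of 0.13, the value that a difference with the same sign in all 4 gives. Per length, the median was 5.14 ± 0.585 TPM (transcripts scaled for length and to the same total in each library, computed from the deposited counts and gene lengths) in overlapping divergent pairs, 3.48 ± 0.370 in the 516 genes with no other opposite exon, 0.909 ± 0.203 in close pairs without overlap and 8.43 ± 0.464 in convergent pairs.

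The 889 genes make up 1.76% of the genes counted and held 10.8%, 10.2%, 10.04% and 10.5% of all counts in replicates 1 to 4 (10.4% ± 0.341, SD, n = 4). They held 19.4% ± 0.668 of the protein-coding counts. The close divergent genes without overlap held 0.693% ± 0.113 of all counts, and the convergent genes held 28.8% ± 1.28. The 16963 protein-coding genes with no opposite exon had a median count of 0 in every library. They held 7.09% ± 1.38 of all counts and 13.2% ± 1.92 of the protein-coding counts. Counts were concentrated in few pairs: the 10 with the most counts held 31.7% of the counts in all 447, 44 pairs had a mean summed count of 1000 or more, and 20 pairs had no count in either gene.

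Many genes of these pairs also share exon bases with a further gene on the opposite strand, and these carried more counts. In 258 pairs neither gene had such a further partner, and in 189 at least 1 did. The 210 genes with a further opposite partner had a median count of 106 ± 11.2, against 16.8 ± 0.957 for the 679 without (SD, n = 4), and the order was the same in all 4 libraries. Per length the medians were 17.8 ± 1.09 and 3.71 ± 0.388 TPM. The pattern was alike on both strands: the median of mean counts was 104 for 101 plus-gene places with a further partner and 15.4 for the rest, and 107 for 114 minus-gene places with a further partner and 19.5 for the rest. Of the 10 pairs with the most counts, 8 had a further opposite gene. The genes of the 258 pairs without a further partner, called exclusive pairs here, held 3.72% ± 0.123 of all counts. How far reads of the further overlaps contribute to these counts was not tested.

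Pairs with longer overlaps had more counts, but the relation across pairs was weak. Over all 447 pairs the Spearman correlation of shared bases with the summed count was 0.247 (range 0.238 to 0.256 over the libraries), with the plus gene 0.188 and with the minus gene 0.177. Pearson's r of the log2 values was 0.198 for the sum. For the higher gene of each pair rho was 0.238 and for the lower gene 0.204. These are descriptions across pairs that share the same 4 libraries and their depth, without a test. In the 258 pairs with no further opposite gene rho was 0.256, and in the 189 with one it was 0.331. The counts of the plus and minus gene of a pair were also weakly related, with rho of 0.260 over all pairs and 0.361 in the 258. Gene length itself was related to the count with rho of 0.111 in plus genes and 0.0727 in minus genes.

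**Figure D1:**
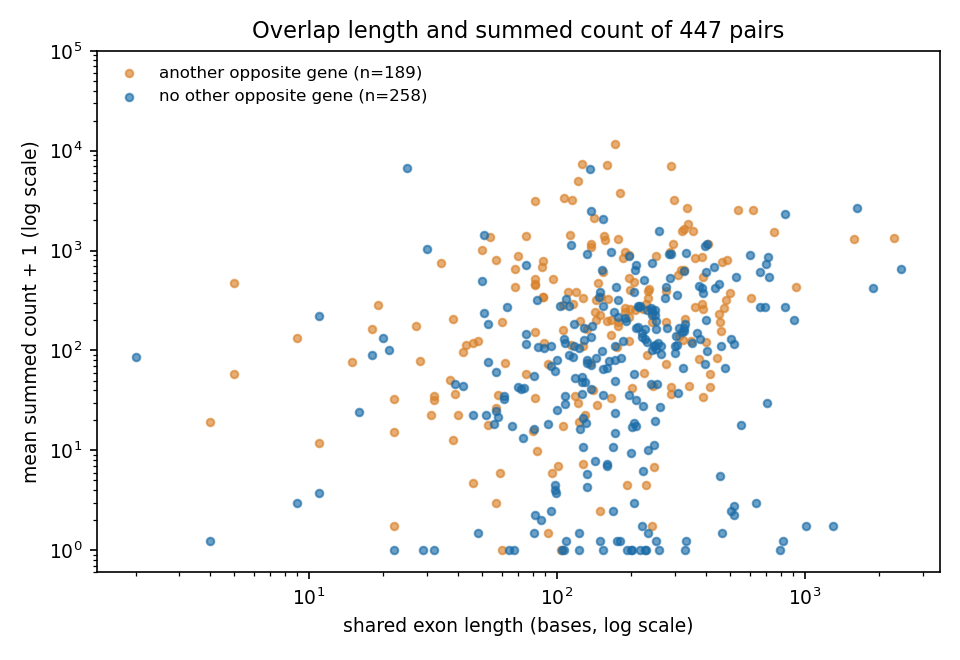
Shared exon length of each of the 447 pairs (horizontal axis, bases, log scale) against its mean summed count over 4 libraries plus 1 (vertical axis, log scale). Points are single pairs, blue for the 258 with no other opposite gene and orange for the 189 with another, and the cloud is broad with a weak upward trend (Spearman rho 0.247).

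Grouped by length, the 258 exclusive pairs had similar medians in the classes up to 100 shared bases and higher ones in each longer class. The median summed count of 19 pairs sharing 1 to 50 bases was 44, 36, 32 and 50 in replicates 1 to 4 (40.5 ± 8.06, SD, n = 4). For 40 pairs sharing 51 to 100 bases it was 31.5, 33, 34.5 and 42 (35.2 ± 4.66). These shortest classes did not keep the same order in all libraries.

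For 79 pairs sharing 101 to 200 bases the median was 68, 64, 85 and 75 (73 ± 9.20), and for 85 pairs sharing 201 to 400 bases it was 124, 114, 163 and 146 (137 ± 22.0). For 35 pairs sharing over 400 bases it was 182, 152, 272 and 205 (203 ± 51). Each of these 3 classes lay above the next shorter one in all 4 libraries, with replicate 3, the library with the most counts in total, highest in each. The difference between classes lay mostly in the gene with more counts, whose median of means went from 24.5 in the shortest class to 141 in the longest, while that of the gene with fewer counts went from 2.75 to 6.00, with 10.8 in the class of 201 to 400 bases.

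On the other side of the border, close divergent pairs without overlap had lower sums at every gap. The median summed count was 18.8 ± 2.99 in 65 pairs with a gap of 0 to 50 bases, 11.8 ± 2.36 in 91 with 51 to 100, 14.4 ± 3.15 in 126 with 101 to 200, 10.6 ± 1.60 in 78 with 201 to 400 and 11.5 ± 2.52 in 55 with 401 to 1000 (SD, n = 4). Among the gapped pairs no steady order with distance was seen.

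**Figure D2:**
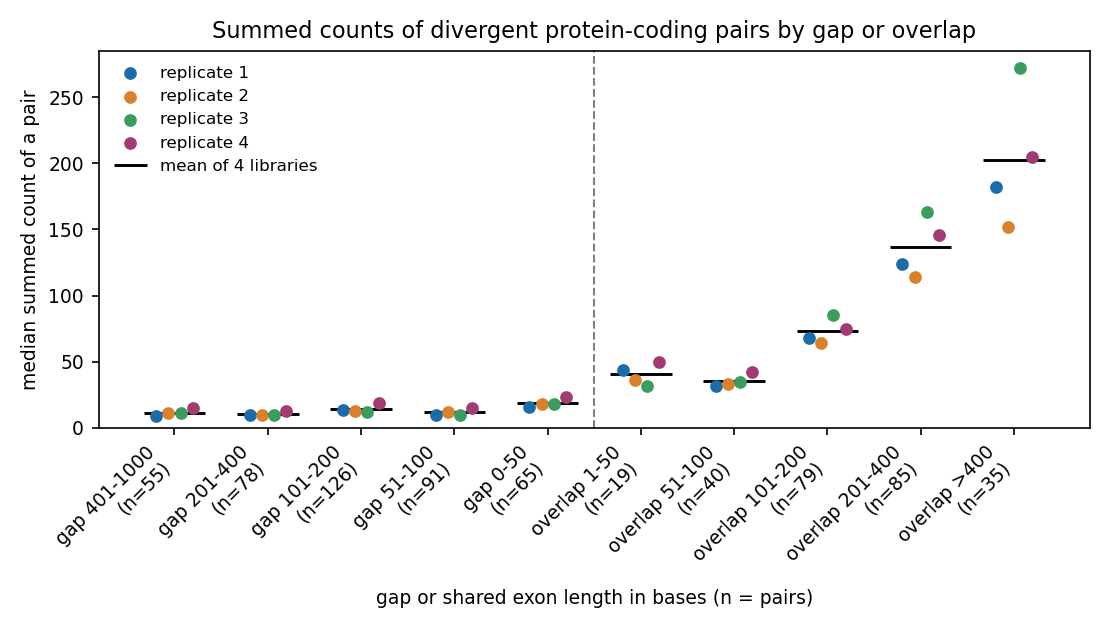
Median summed count of a pair (vertical axis, counts) in classes of gap (left of the dashed line) or of shared exon length (right of it), in bases, for pairs whose genes have no other opposite exon. Coloured points are the 4 libraries and black bars their mean; the means lie between 10.6 and 18.8 in the gapped classes and between 35.2 and 203 in the overlapping ones.

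At the threshold itself the pairs just inside and just outside were mixed. Pus10, a pseudouridine synthase gene, shares 2 bases with Pex13, a peroxisome import gene, and had 65, 53, 113 and 87 counts against 11, 2, 2 and 6. Fcf1, a ribosome biogenesis gene, shares 4 bases with Arel1 and had 8, 15, 8 and 18 counts against 9, 5, 5 and 5. Nfia and E130114P18Rik also share 4 bases, and the pair had 1 count in 1 library. Cutc shares 5 bases with Cox15, a heme A synthesis gene, and had 1, 3, 1 and 4 counts against 52, 42, 67 and 57. Just outside, Fam173b lies 4 bases from Cct5, a chaperonin subunit gene, with 19, 13, 16 and 17 counts against 96, 94, 72 and 132. Lyar, a nucleolar protein gene 12 bases from Zbtb49, had 354, 340, 501 and 635 counts against 1, 2, 1 and 3.

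Within a pair, counts lay mostly on 1 of the genes, and on the same gene in each library. Of 372 pairs with a mean summed count of 10 or more, 339 (91.1%) had more counts on the same gene in all 4 libraries, 169 on the plus gene and 170 on the minus gene, and 33 were mixed. The median absolute log2 ratio of plus to minus counts (after adding 1 count to each) was 3.43, against a median SD between libraries of 0.50. The gene with more counts held over 90% of the pair's counts in 208 pairs (55.9%) and under 60% in 31. Its median share was 91.9%.

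Of the 199 such pairs with no further opposite gene, 182 (91.5%) kept the same side, with a median absolute log2 ratio of 3.44. Of 252 pairs with a mean summed count of 100 or more, 242 (96.0%) did, with a median of 3.84. Scaled per length as TPM the median absolute log2 ratio was 2.76, and the higher gene changed in 23 of the 372 pairs. In 148 of the pairs exactly 1 gene had a further opposite partner. That gene was the higher one in all 4 libraries in 100 of them (67.6%), the other gene in 36, and 12 were mixed. The median count was 135 for the gene with the further partner and 20.4 for the gene without, before any scaling for length. The count was alike for both strands, at 46 of 68 pairs where the plus gene had the further partner and 54 of 80 where the minus gene did.

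**Figure D3:**
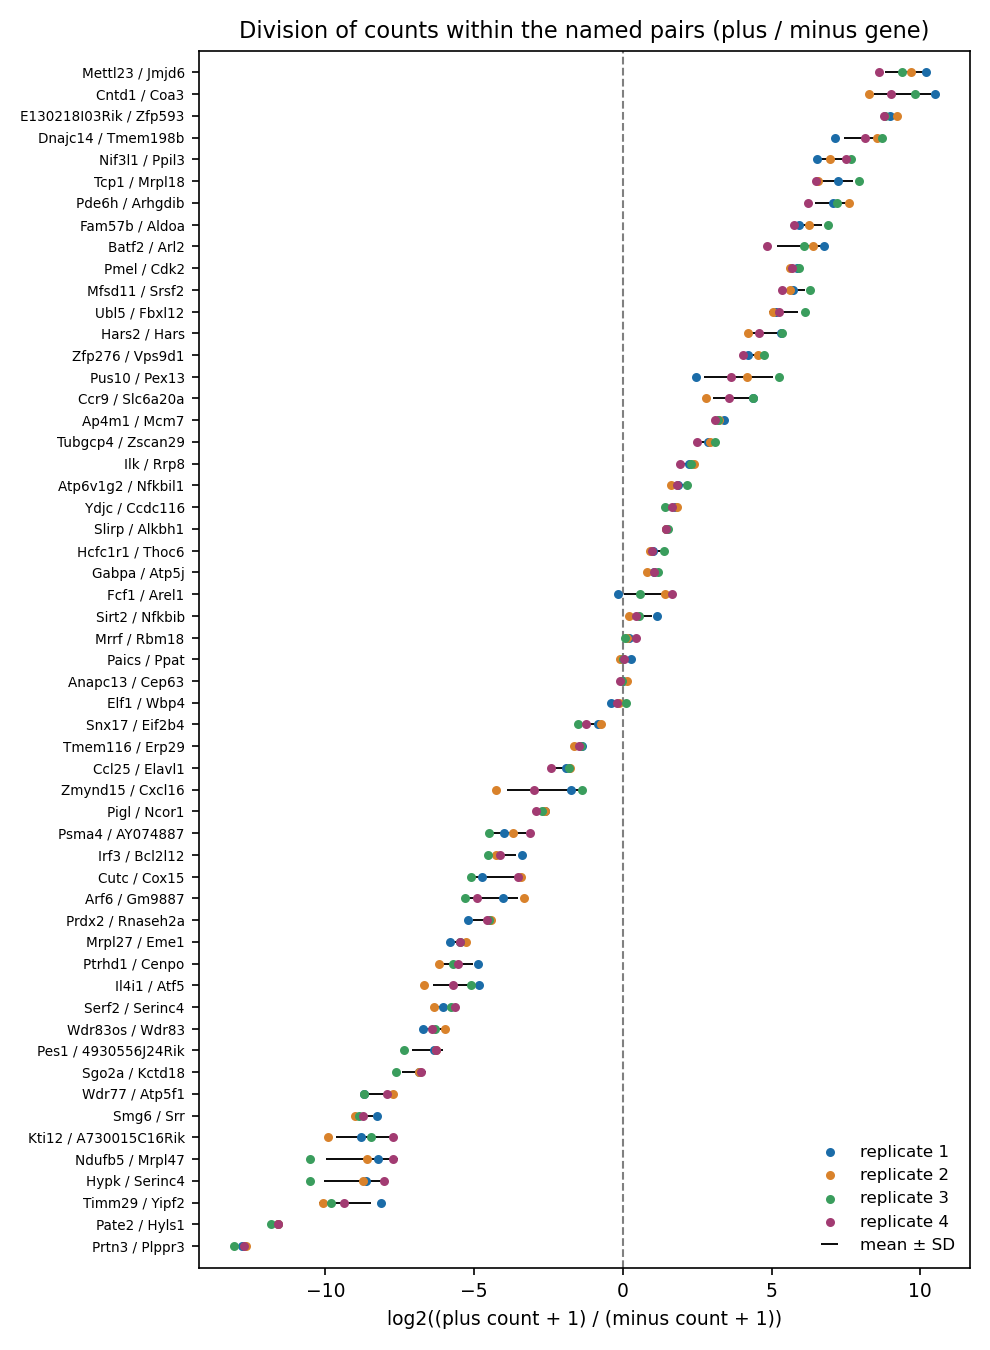
Log2 ratio of plus to minus counts (horizontal axis, 1 count added to each gene) in each of the 4 libraries for pairs selected by rank or list that had at least 10 summed counts, ordered by their mean; coloured points are replicates, black lines the mean ± SD and the dashed line marks equal counts. Most pairs lie on the same side of the line in all 4 libraries, from 9.47 for Mettl23/Jmjd6 to -12.80 for Prtn3/Plppr3, and Paics/Ppat and Anapc13/Cep63 lie on it.

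The pair with the most counts was Mettl23 and Jmjd6 on chromosome 11 (Mettl23 116843278 to 116854263, Jmjd6 116837432 to 116843449, GRCm38). Mettl23, a methyltransferase-like gene, had 11671, 10672, 13439 and 10609 counts, and Jmjd6, a JmjC-domain oxygenase gene that acts on nuclear proteins, had 9, 12, 19 and 26. Mettl23 was higher in every library, by 9.47 ± 0.66 on the log2 scale (SD, n = 4), and per length it reached 3386 ± 264 TPM against 2.72 ± 1.15. Mettl23 also shares 460 exon bases with Srsf2, and Srsf2 is itself in a divergent pair.

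That pair is Mfsd11 and Srsf2, which share 288 bases. Mfsd11, a membrane transporter family gene, had 6119, 4818, 8774 and 7786 counts, and Srsf2, a splicing factor of the serine and arginine rich family, had 115, 97, 111 and 190. Mfsd11 was higher in all 4 libraries, at 755 ± 120 TPM against 34.2 ± 11.1, with replicate 3 highest for Mfsd11 and replicate 4 for Srsf2. Both genes with the higher counts at this locus, Mettl23 and Mfsd11, are on the plus strand.

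Smg6 and Srr share 126 bases on chromosome 11. Smg6, the endonuclease of nonsense-mediated mRNA decay, had 20, 12, 17 and 17 counts, and Srr, serine racemase, had 6470, 6677, 8382 and 7716, so that the ratio of plus to minus was -8.72 ± 0.32 on the log2 scale. Srr also shares 1240 exon bases with Tsr1, a ribosome maturation gene. In TPM, Smg6 stood at 1.54 ± 0.351 and Srr at 1259 ± 46.6.

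Prtn3 and Plppr3 share 159 bases on chromosome 10. Prtn3, proteinase 3 of neutrophil granules, had no count in any library, which allows up to 1.35 to 1.78 CPM (3 counts scaled to each library's total, counting error only). Plppr3, a gene related to lipid phosphatases, had 7067, 6430, 8524 and 6754 counts and 1297 ± 74.8 TPM. Plppr3 also shares 251 exon bases with Ptbp1, a splicing repressor. Pate2 and Hyls1 on chromosome 9 followed the same form, with Pate2, a gene known from the reproductive tract, at 0 in all 4 libraries and Hyls1, a centriole gene, at 3109, 3083, 3638 and 3092. Hyls1 shares 2618 exon bases with Pus3 on its other side.

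Of the pairs with no further opposite gene, Fam57b and Aldoa had the most counts. They share 25 bases on chromosome 7. Fam57b, a gene of sphingolipid metabolism, had 6124, 5927, 7803 and 6347 counts, and Aldoa, the glycolytic aldolase, had 100, 77, 65 and 117. Fam57b was the higher gene in every library, by 6.20 ± 0.50 on the log2 scale, and stood at 1306 ± 34.3 TPM against 19.1 ± 5.73. Their spans overlap far beyond the shared exon bases, since Aldoa covers 126795234 to 126809108 and Fam57b 126797668 to 126830219. The shared bases, 126797668 to 126797692, lie toward the 3′ end of Aldoa, a minus gene, and not at its 5′ end.

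Pde6h and Arhgdib share 136 bases in 2 blocks on chromosome 6. The blocks lie within 136923832 to 136924216, toward the 3′ end of Arhgdib, a minus gene that covers 136923655 to 136941899. Pde6h, the inhibitory subunit of the cone photoreceptor phosphodiesterase, had 6727, 6614, 6924 and 5755 counts, and Arhgdib, a regulator of small GTPases known from blood cells, had 49, 33, 46 and 75. The ratio was 7.03 ± 0.57 on the log2 scale and the levels were 657 ± 88.0 and 23.4 ± 8.0 TPM. Replicate 4 was lowest for Pde6h and highest for Arhgdib.

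In 2 of the 10 pairs with the most counts, both genes had over 100 counts in every library. Slirp, a mitochondrial RNA-binding protein gene, and Alkbh1, a nucleic acid demethylase gene, share 122 bases on chromosome 12, with 3428, 3605, 4047 and 3585 counts against 1253, 1306, 1424 and 1295. The ratio of 1.47 ± 0.02 on the log2 scale hardly moved between libraries. Tmem116 had 929, 835, 1238 and 998 counts and Erp29, a chaperone of the endoplasmic reticulum, 2385, 2584, 3302 and 2774, a ratio of -1.47 ± 0.12. Per length these genes were close, at 209 ± 11.6 TPM for Tmem116 and 239 ± 9.65 for Erp29. Both pairs have further opposite genes: Slirp shares 945 exon bases with Snw1, Tmem116 848 with Gm42878 and Erp29 2210 with Naa25.

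Timm29, a mitochondrial import gene, had 11, 2, 3 and 4 counts, and Yipf2, a Golgi membrane gene that also overlaps Carm1 by 1025 bases, had 3322, 3220, 3551 and 3287. Cntd1, a meiotic gene that also overlaps Becn1 by 3104 bases, had 2868, 2792, 3623 and 3138, and its partner Coa3, a cytochrome oxidase assembly gene, had 1, 8, 3 and 5. In both pairs the mitochondrial gene was the lower one in every library.

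**Figure D4:**
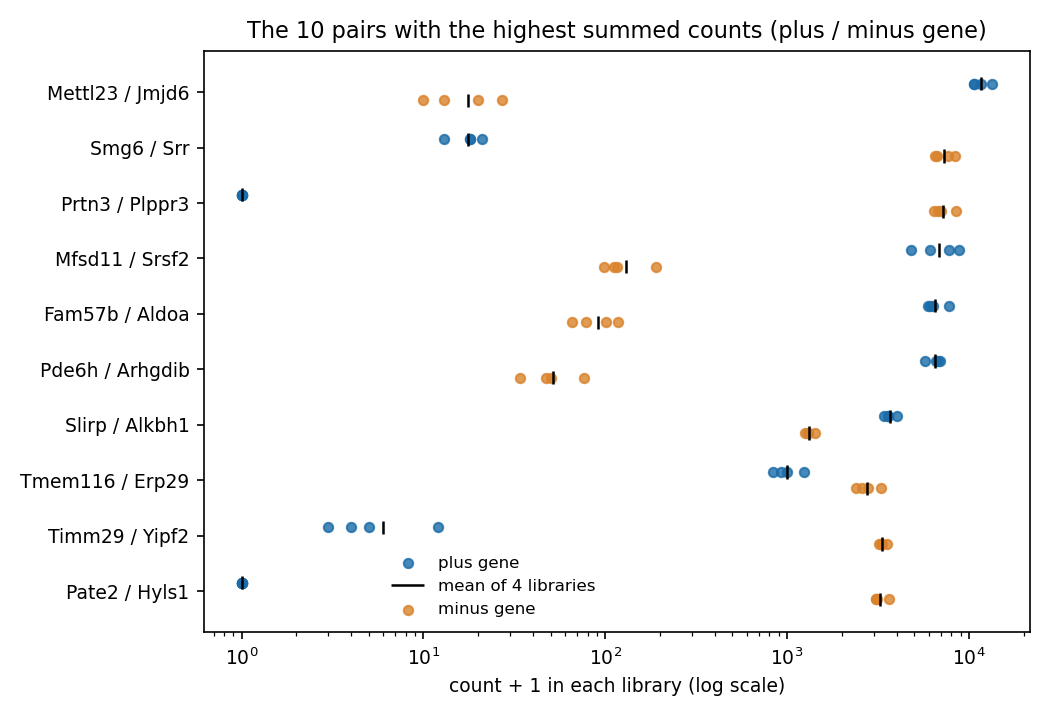
Counts in each of the 4 libraries (points, horizontal axis, count plus 1, log scale) of the plus gene (blue) and the minus gene (orange) of the 10 pairs with the most counts, with the mean as a black mark. The values of the genes of a pair do not overlap in any of these pairs, and Slirp with Alkbh1 and Tmem116 with Erp29 lie closest together.

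**Figure D5:**
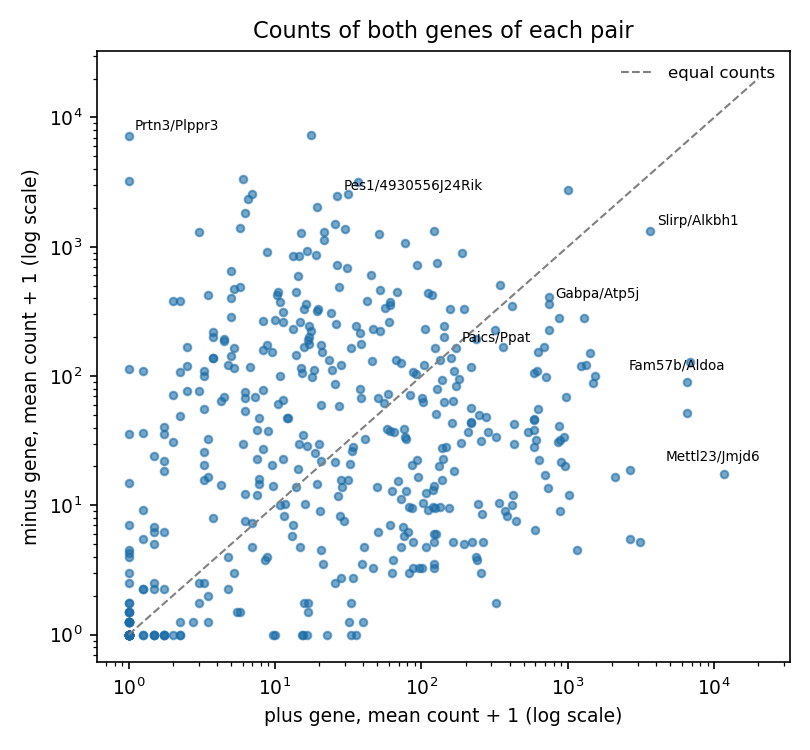
Mean count plus 1 over 4 libraries of the plus gene (horizontal axis, log scale) against that of the minus gene (vertical axis, log scale) for each of the 447 pairs; the dashed line marks equal counts and some pairs are named. Points spread widely to both sides of the line, with Prtn3/Plppr3 and Mettl23/Jmjd6 among the farthest.

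The longest overlaps were not the pairs with the most counts. Sgo2a, which protects cohesin at centromeres, and Kctd18 share 2455 bases, and had 4, 4, 3 and 5 counts against 575, 572, 786 and 656. Serinc4 forms 2 pairs, sharing 2296 bases with Serf2 and 1576 with Hypk, a partner of the N-terminal acetyltransferase, and its 1176, 1288, 1464 and 1291 counts stand in both. Serf2 had 17, 15, 26 and 25 counts and Hypk 2, 2, 0 and 4.

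Ubl5, a ubiquitin-like splicing gene, shares 1890 bases with Fbxl12, an F-box gene, and had 389, 364, 490 and 420 counts against 10, 10, 6 and 10. E130218I03Rik and Zfp593, a zinc finger gene, share 1627 bases and had 2516, 2374, 3138 and 2658 counts against 4, 3, 6 and 5. In each of these 5 longest overlaps the same gene was higher in all 4 libraries without overlap between the genes' values.

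Some pairs with at least 100 counts were close to even. Paics and Ppat, which both encode enzymes of purine synthesis and share 272 bases on chromosome 5, had 177, 143, 184 and 179 counts against 145, 154, 182 and 174. The log2 ratio of 0.06 ± 0.16 changed sign between libraries. Anapc13, a subunit of the anaphase-promoting complex, and Cep63, a centrosome gene, had 114, 141, 138 and 139 counts against 114, 128, 140 and 147, a ratio of 0.01 ± 0.09.

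Elf1, an ETS factor of lymphocytes, and Wbp4, a spliceosome gene, had 46, 43, 57 and 71 counts against 61, 47, 53 and 81. Mrrf, the mitochondrial ribosome recycling factor, was above Rbm18 in every library, at 144, 140, 182 and 162 counts against 125, 128, 171 and 120. Even counts did not mean even levels per length, since Anapc13 stood at 44.3 ± 5.58 TPM and Cep63 at 10.9 ± 1.06.

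The members were also described by function, from lists built on gene symbols. Of all 21764 protein-coding genes, 889 (4.08%) were members. The share was 34 of 255 genes (13.3%) for the mitochondrial ribosome and respiratory chain, 21 of 185 (11.4%) for DNA replication and repair, 35 of 399 (8.77%) for RNA processing, 43 of 662 (6.5%) for proteasome, ubiquitin and chaperones, 21 of 350 (6.0%) for cell division and 8 of 134 (5.97%) for translation. It was 66 of 1183 (5.58%) for membrane traffic, 28 of 503 (5.57%) for cilia and coiled-coil genes, 19 of 390 (4.87%) for transcription and chromatin, 81 of 2091 (3.87%) for clone-named genes and 17 of 547 (3.11%) for zinc finger genes. These shares are descriptions, without a test of enrichment.

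Of the 34 member genes of the mitochondrial ribosome and respiratory chain, all had counts in all 4 libraries, with a median count of 39.0, and in pairs with at least 10 counts 14 were the higher gene in all libraries, 18 the lower and 2 mixed. For comparison, the median over all 889 members was 25.5. Gabpa, an ETS factor of mitochondrial gene promoters, and Atp5j, a subunit of ATP synthase, share 397 bases and had 663, 577, 854 and 863 counts against 322, 329, 372 and 420. Per length they were close, at 102 ± 12.5 and 90.9 ± 10.4 TPM. Ndufb5, a complex I subunit, had 7, 5, 1 and 11 counts, and its partner Mrpl47 of the mitochondrial ribosome had 2385, 2311, 2926 and 2555. Atp5f1, another ATP synthase subunit, had 1650, 1670, 2057 and 1933 counts beside 3, 7, 4 and 7 for Wdr77, a component of the methylosome. Mrpl47 and Atp5f1 each overlap a further gene, Actl6a by 452 bases and Gm42890 by 203, while Gabpa and Atp5j have no further partner.

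Of 21 DNA replication and repair genes, all had counts in all 4 libraries, with a median of 14.8, and 8 were the higher gene, 11 the lower and 2 mixed. Mcm7, a subunit of the replicative helicase, had 140, 148, 149 and 157 counts beside 1483, 1400, 1383 and 1366 for Ap4m1, an adaptor complex subunit. Eme1, an endonuclease subunit, had 1228, 1204, 1628 and 1383 counts beside 21, 30, 36 and 30 for Mrpl27. Rnaseh2a, the catalytic subunit of ribonuclease H2, had 1027, 1171, 1532 and 1261 beside 27, 54, 67 and 53 for Prdx2, a peroxiredoxin gene. Mcm7 was thus the lower gene and Eme1 and Rnaseh2a the higher ones in all 4 libraries. Eme1 also overlaps Lrrc59 by 221 bases and Ap4m1 overlaps Taf6, a transcription factor subunit, by 1185, whereas Rnaseh2a has no further partner and Prdx2 shares 173 bases with Junb.

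Of 35 RNA processing and splicing genes, 31 had counts in all 4 libraries, with a median of 75, and 16 were the higher gene, 17 the lower and 1 mixed. Ppil3, a cyclophilin of the spliceosome, had 24, 18, 15 and 14 counts beside 2301, 2364, 3249 and 2735 for Nif3l1. Wdr83 is known from splicing complexes but was counted on the list of cilia and coiled-coil genes, not on this one. It had 2647, 2425, 2690 and 2395 counts beside 24, 38, 33 and 27 for Wdr83os. Ppil3 was the lower gene and Wdr83 the higher gene of its pair in every library. Nif3l1 also overlaps Orc2, an origin recognition subunit, by 1150 bases, and Wdr83 overlaps Dhps by 128. Thoc6, a subunit of the mRNA export complex THO, had 159, 164, 160 and 188 counts beside 324, 309, 420 and 375 for Hcfc1r1.

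All 8 translation and tRNA synthesis genes had counts in all 4, with a median of 80.1, and 4 were higher and 4 lower. Hars, the cytosolic histidyl-tRNA synthetase, had 18, 41, 25 and 35 counts. Its mitochondrial paralog Hars2, counted on the mitochondrial list, had 752, 771, 1072 and 851. The paralogs share 195 exon bases at their annotated 5′ ends and differed by 4.86 ± 0.57 on the log2 scale. Eif2b4, a subunit of the exchange factor of translation initiation, had 296, 282, 392 and 342 counts and was above Snx17, a sorting nexin with 165, 171, 139 and 144, in all 4 libraries.

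Of 19 transcription and chromatin genes, 17 had counts in all 4 libraries, with a median of 60.2, and 8 were higher, 8 lower and 2 mixed. Ncor1, a corepressor, had 394, 360, 512 and 525 counts beside 64, 58, 77 and 68 for Pigl, a gene of glycolipid anchor synthesis, yet per length they were 27.4 ± 3.23 and 23.1 ± 0.854 TPM. Of 17 zinc finger genes, 15 had counts in all libraries, with a median of 17.8, and 4 were higher, 8 lower and 4 mixed. Zfp276 had 572, 541, 639 and 590 counts beside 30, 22, 23 and 35 for Vps9d1, whereas Zscan29 had 85, 87, 95 and 123 beside 625, 674, 814 and 705 for Tubgcp4, a gamma-tubulin complex gene. Zfp276 overlaps Fanca, a DNA repair gene, by a further 920 bases, and Tubgcp4 overlaps Trp53bp1, another repair gene, by 2130.

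Of 43 proteasome, ubiquitin and chaperone genes, 38 had counts in all 4 libraries, with a median of 27.2, and 16 were higher, 18 lower and 4 mixed. Tcp1, a chaperonin subunit, had 1801, 1814, 2673 and 2150 counts beside 11, 18, 10 and 23 for Mrpl18, and it shares 571 further bases with Acat3. Psma4, a proteasome subunit, had 61, 67, 56 and 122 beside 994, 882, 1300 and 1069 for AY074887. The chaperonin pair Hspe1 and Hspd1, chosen after its values were seen as a well-known bidirectional pair, shares 112 bases and had 29, 41, 28 and 40 counts against 214, 247, 180 and 322.

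Of 21 cell division genes, 19 had counts in all 4 libraries, with a median of 31.5, and 7 were higher, 10 lower and 3 mixed. Cdk2, the S phase kinase, had 12, 13, 11 and 14 counts beside 744, 696, 736 and 767 for Pmel, a melanosome gene, with which it shares 34 bases. Cenpo, a centromere protein gene, had 822, 789, 988 and 843 beside 27, 10, 18 and 17 for Ptrhd1. Pmel also overlaps Dgka by 105 bases and Cenpo overlaps Adcy3 by 1380. Cdk2 was the lower gene and Cenpo the higher gene of its pair in every library.

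Of 66 membrane traffic and transport genes, 52 had counts in all libraries, with a median of 14.4, and 24 were higher, 30 lower and 2 mixed. Of 28 cilia and coiled-coil genes, 21 had counts in all libraries, with a median of 24.6, and 6 were higher, 15 lower and 2 mixed. These counts are descriptions and were not tested against each other.

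Of the T cell lists, none of 34 genes of the T cell receptor and its signalling was a member. Of 209 cytokine, chemokine and receptor genes 5 (2.39%) were members, and of 63 T cell transcription regulators 4 (6.35%) were, beside 4.08% of all protein-coding genes. No difference between these shares was tested. Il4i1, an amino acid oxidase gene that interleukin 4 induces in B cells, had 13, 3, 15 and 7 counts and its partner Atf5, a stress response factor, 401, 405, 549 and 420. Irf3, the interferon regulatory factor of virus sensing, had 27, 13, 17 and 18 counts beside 293, 270, 411 and 334 for Bcl2l12. Batf2, an AP-1 family factor, had 216, 253, 273 and 201 counts beside 1, 2, 3 and 6 for Arl2, a small GTPase gene.

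The Batf2 pair has no further partner, Irf3 pairs with a gene that overlaps Gm15545 by 572 bases, and Atf5 and Il4i1 overlap Nup62 by 82 bases and Tbc1d17 by 3423.

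Batf2 was the only 1 of the 4 regulators that was the higher gene of its pair. Nfkbil1 had 43, 38, 42 and 47 counts beside 160, 119, 191 and 170 for Atp6v1g2, a proton pump subunit, and Nfkbib, an inhibitor of NF-kappa B, had 28, 37, 45 and 42 beside 63, 43, 66 and 58 for Sirt2, a deacetylase. The Sirt2 and Nfkbib values overlap across libraries, although Sirt2 was higher in each library.

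The other cytokine and receptor genes had few counts. Ccl25, a chemokine of thymus and gut, had 11, 8, 16 and 9 beside 44, 30, 58 and 52 for Elavl1, an RNA-binding protein gene. Ccr9, its receptor, had 20, 6, 20 and 11 beside none for Slc6a20a. Cxcl16 had 9, 18, 17 and 15 beside 2, 0, 6 and 1 for Zmynd15, and Il31, a cytokine of T-helper 2 cells, had none, as did its partner Lrrc43 in all libraries but replicate 3, with 2.

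Among pairs with at least 10 counts, genes known only by a numbered clone or model name were often the higher gene. Of all 81 such members, 48 had counts in all 4 libraries, beside 708 of all 889 members. Their median count was 19.5, below the 25.5 over all members, so the values below cover only those in pairs that passed the count limit. Of 54 pairs with at least 10 counts that join such a gene to a gene with a functional symbol, the clone-named gene was higher in all 4 libraries in 39, the other in 12, and 3 were mixed. Their median counts were 202 and 20.2, although their median exon lengths were 1398 and 3683 bases. In the 36 of these pairs with no further opposite gene, the clone-named gene was higher in 28.

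Pes1, a ribosome biogenesis gene, had 26, 27, 18 and 31 counts beside 2173, 2181, 3099 and 2455 for 4930556J24Rik. Their shared bases lie within 3976288 to 3976778, toward the 3′ end of Pes1, a plus gene that covers 3963975 to 3980004. Kti12, a gene of tRNA wobble modification, had 4, 1, 7 and 10 beside 2228, 1922, 2822 and 2306 for A730015C16Rik. Per length, 4930556J24Rik stood at 1587 ± 77.6 TPM and A730015C16Rik at 1487 ± 89.7, against 6.77 ± 1.88 for Pes1 and 2.57 ± 1.77 for Kti12. The clone-named gene was higher in all 4 libraries in both pairs, and neither pair has a further opposite gene.

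Variation between the replicates was tested over all genes with edgeR's quasi-likelihood fit and Benjamini-Hochberg adjustment. Of 505 members with enough counts, 1 was called at an adjusted p of 0.05 (0.198%), beside 0.447% of the 4918 genes tested, and the other 384 members were not tested. At an unadjusted p below 0.05 stood 20 members (3.96%) and 281 of all genes (5.71%). The called member was Gm9887, a protein-coding model opposite Arf6, with 605, 322, 665 and 1121 counts and an edgeR adjusted p of 0.00019. Replicate 4 was highest and replicate 2 lowest. Arf6, a small GTPase of membrane traffic, shares 209 bases with it and had 36, 31, 16 and 37 counts, lowest in replicate 3. Without replicate 2 or without replicate 4 the adjusted p of Gm9887 was 0.126 and 0.231, and with library totals alone as the scale it was 0.078. The next member was Mindy2, a deubiquitinase gene, with 43, 39, 121 and 45 counts and an edgeR adjusted p of 0.361.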

How the data were processed

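Total RNA-seq of 4 libraries of 1 group was read from per-gene tables. The values are raw counts per gene, which the authors made with featureCounts 1.4.6-p4 on GENCODE M13 gene models of mm10, with strand option 1 and paired reads, per the file headers; an aligner was not named there or in the labels. Symbols and gene types came from GENCODE M21 by gene identifier, and 224 of 50600 identifiers had no match. Exon intervals of the tables were intersected across strands to find pairs and shared bases. TPM was computed from the deposited counts and lengths. Correlations and ratios used a pseudocount of 1. Spread among the 4 libraries was tested with edgeR 4.0.16 in R 4.3.3 (intercept only, TMM, filterByExpr, robust prior, Benjamini-Hochberg at 0.05), with DESeq2 1.42.0 as an alternative, and other steps ran in Python 3.11.15 with pandas 2.3.3 and scipy 1.17.1. On simulated counts for 4918 genes the edgeR test called 22.2% of genes with a 2-fold change in 1 library, 97.0% with 4-fold and 100% with 8-fold, and 1 of 4557 unchanged genes. The simulation gave every gene the same dispersion and scaled its mean by library totals alone. These rates therefore need not hold for the deposited libraries. Pairs were named by rank of summed count, shared length, evenness of the split, variation and membership of function lists built from gene symbols; 1 pair picked this way is not reported here. The members, the lists and the rules were chosen with earlier results of these data known. At 1688658 to 2222583 counts a library, 3 counts correspond to 1.35 to 1.78 CPM.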

Additional observations from a re-analysis of the deposited data

Results flagged for a closer look

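Of the 92 named genes with a mean of at least 10 counts, 5 (5.43%) had 1 library far from the other 3, with Dixon's ratio of the gap to the whole range above its 95% critical value; chance flags about 1 in 20 groups, and the share here is near that. Values are CPM (counts scaled to library totals) in replicates 1 to 4. Wdr83os, a small gene beside Wdr83, had 14.2, 22.3, 14.8 and 14.4, with replicate 2 highest (ratio 0.921). Cox15 had 30.8, 24.6, 30.1 and 30.3, with replicate 2 lowest (0.895). Pes1 had 15.4, 15.8, 8.1 and 16.5, with replicate 3 lowest (0.871). Elavl1 had 26.1, 17.6, 26.1 and 27.6, with replicate 2 lowest (0.842). Elf1 had 27.2, 25.2, 25.6 and 37.7, with replicate 4 highest (0.839). Replicate 2 stood apart in 3 of the 5 genes.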

How the results depend on the processing

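The Spearman correlation of shared bases with summed counts, 0.247 over all pairs, was 0.239 on the TPM scale, 0.202 with at least 50 shared bases, 0.256 in pairs with no other opposite gene, 0.189 with the shared percent of gene length and 0.298 in pairs with at least 10 counts, and 0.245 to 0.249 with each replicate left out. For the plus gene alone it went down to 0.037 with the shared percent of gene length. The share of counts in these pairs, 10.4%, was 9.77% with at least 50 shared bases, 3.72% in pairs with no other opposite gene (fewer genes by construction), 19.4% of protein-coding counts, and 10.2% to 10.5% with each replicate left out. The median absolute log2 ratio within pairs, 3.43, was 3.67 with a pseudocount of 0.1, 2.76 on the TPM scale, 3.84 in pairs with at least 100 counts, and 3.39 to 3.44 with each replicate left out. The edgeR test called 1 member in the main analysis, and 0 to 1 with each replicate left out. It called 0 with library totals as the scale, where 3 of all 4918 genes were called and 16 members had an unadjusted p below 0.05. It called 0 without replicate 2 and without replicate 4, where 22 and 26 members had an unadjusted p below 0.05. The DESeq2 alternative called 1. The cause of these differences was not tested. None of the correlations changed sign under the alternatives run. The shares, absolute ratios and numbers of calls have no sign that could change. No paired analysis was possible because the libraries form 1 group. Depth limits what is said of the 75 pairs with fewer than 10 summed counts and of the 384 members that were not tested for variation.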
